A study of Homo sapiens with 36 samples.

Results

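The p53 target genes described here are 36 genes listed as targets whose transcription p53 raises when it is activated. Whether p53 raises each of these genes was not examined here. They were taken as a named list of symbols, and each symbol was found once among the 29872 genes of the table by its Ensembl identifier in GENCODE release 44, so that 36 of 36 members were present. All 36 were measured in LNCaP cells, a line established from human prostate cancer that grows in response to androgen. By known role, 4 members act back on p53 (MDM2, MDM4, PPM1D, CCNG1), 8 act in growth arrest (BTG1, BTG2, GADD45A, GADD45B, PLK2, PLK3, CCNG2, ZMAT3) and 5 in DNA repair and nucleotide supply (XPC, DDB2, POLH, RRM2B, ASCC3). A further 6 act in metabolism and stress sensing (SESN1, SESN2, TIGAR, FDXR, TP53I3, CMBL), 12 in cell death and autophagy (FAS, TNFRSF10B, AEN, PHLDA3, PERP, EI24, TRIAP1, RPS27L, DRAM1, SPATA18, TP53INP1, TP53I11), and PLXNB2 encodes a cell surface receptor.

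The study asked how selective inhibition of CDK4, the kinase that with D-type cyclins phosphorylates the RB protein and opens the way into S phase, changes transcription. The cells received vehicle, AU2-94 or atirmociclib, which are both described as CDK4 inhibitors (1 µM or 2 µM), or ribociclib, which inhibits CDK4 and CDK6 (2 µM). Total RNA of these 6 groups was collected at 24 h and at 72 h from 3 biological replicates, so that there were 12 groups and 36 libraries. No group carried a genetic change beyond those of the line, the vehicle groups are also labelled with a dose of 2 µM, and wells for 72 h were seeded at lower density than wells for 24 h, so that time and density cannot be told apart.

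p53 is a transcription factor that binds DNA as a tetramer, on a site made of a pair of 10-base half-sites, and is kept scarce in unstressed cells by MDM2, a ubiquitin ligase that marks it for degradation. Because MDM2 is itself a p53 target, the pathway holds a negative feedback loop. When DNA damage, ribosomal stress or an oncogene frees p53 from MDM2, its targets slow the cell cycle, repair DNA, adjust metabolism or lead to cell death. Many targets also answer to other transcription factors, among them FOXO proteins, ATF4 and E2F, so that a target's RNA level is not a reading of p53 alone.

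Sites of 2 half-sites with a spacer of 0 to 13 bases were searched for on both strands within 5 kb of each annotated start in GRCh38. Both half-sites had to match RRRCWWGYYY exactly (R is A or G, W is A or T, Y is C or T). Sites with a mismatch were thus missed, and a gene without a listed site may still hold one. A site was found for 3 of the 36 members (8.33%) and for 427 of 29856 genes in the table (1.43%). The sites of these 3 members are given 5′ to 3′ on the strand of the gene, with the half-sites in capitals and any spacer base in lower case.
DDB2: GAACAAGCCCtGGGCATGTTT
PLK2: AAACATGCCTGGACTTGCCC
ZMAT3: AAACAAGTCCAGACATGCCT
The DDB2 site, with a spacer of 1 base, lies in an exon at chr11:47214979-47214999, 514 bases after the annotated start. The PLK2 site has no spacer and lies outside the gene at chr5:58462274-58462293, at position -2154 from the start. The ZMAT3 site has no spacer either and lies in an intron at chr3:179070188-179070207, 2008 bases after the start. The RNA of these 3 genes moved in different directions, as described for each gene among its role: DDB2 fell, PLK2 rose and ZMAT3 rose with atirmociclib at 24 h.

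RefSeq promoter windows of 300 bases (250 before to 50 after the RefSeq start, GRCh38.p14) were also listed for 29 of the 36 members. RefSeq starts can differ from the annotated starts used above, and for FAS, TIGAR and PLXNB2 the window lay outside the 5 kb searched. A single p53 half-site lay in 5 of the 29 (17.2%), against 6.63% of 35116 promoters, and a full site lay in 0 of the 29, against 10 promoters in all (0.0285%). The windows of the members held more G and C (median 67.3%) than all promoters (58.7%), and the shares were not adjusted for this. The half-sites of all 5 were as follows on the strand of the gene.
AEN: GGGCTTGCCC
EI24: GGGCATGCCC
FDXR: GGGCTTGCCC
PLK2: AGACTTGCTT
RPS27L: AGACAAGCCC
They began at positions -34, -10, -11, -132 and -59 from the start, in that order. The match of such letters is a description of sequence, and no binding of p53 was measured in these libraries.

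Expression is given as the normalised counts that the authors deposited, a value on the scale of reads that is adjusted for library size but not for gene length. Library totals were 20675156 to 22692555, and 19708 to 21405 genes were above 0 in each library. The 9 markers of luminal prostate cells were all present, with a summed normalised count of 97915 to 174096 per library, whereas the summed markers of basal cells reached 4.73 to 88.6, of neuroendocrine cells 0 to 5.20, of leukocytes 0 to 7.09 and of fibroblasts 215 to 658, almost all of it COL1A1. The basal keratin KRT14 moved with treatment and lay above every vehicle library in all 15 treated libraries at each time. Its normalised counts were 4.35 to 21.3 in vehicle and 23.2 to 59.97 in treated libraries at 24 h, and 4.73 to 25.2 and 39.3 to 88.6 at 72 h. COL1A1 was below every vehicle library in 14 of the 15 at 24 h (194 to 405 against 389 to 512), and at 72 h the ranges overlapped. The part of these markers in the results was not tested. In bulk RNA, fewer cells expressing a gene and less RNA per cell cannot be told apart. Per kilobase of exon, the most abundant members in the 24 h vehicle libraries were EI24 (mean 1104 normalised counts per kb), CCNG1 (972), TP53INP1 (782), PLXNB2 (759.8) and MDM2 (689), and the least abundant were FAS (4.36), TP53I3 (17.7) and TIGAR (30.2). FAS has 29313 annotated exon bases against 2312 in TP53I3, and without division by length TP53I3 had fewer normalised counts than FAS.

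Each treatment was compared with the 3 vehicle libraries of its own time with limma on log2(normalised count + 1). A gene was called at a Benjamini-Hochberg adjusted p of at most 0.05 over all genes tested, and log2 fold changes are given with the standard error (SE). All 36 members passed the filter on low values (3 or more libraries with a normalised count of 10 or more) at both times. The 5 treatments of a time share their vehicle libraries, so their values are set side by side and agreement between them is not independent.

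The p53 target genes did not move one way. At 24 h, members were called in both directions in nearly equal number in 4 of the 5 treatments, and at 72 h more members were lower than higher in all 5. The same genes stood on each side throughout: BTG1, CCNG2, PLK2, SESN1 and TP53INP1 were higher and AEN, DDB2, PHLDA3, PLK3 and SESN2 lower in all 10 comparisons with vehicle. No member was called in opposite directions by different treatments at the same time. The same counts over all genes were not taken, and the 5 treatments of a time share their vehicle libraries.

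At 24 h, AU2-94 at 1 µM gave 8 members higher and 8 lower, where 14.3% and 13.5% of the 16137 genes tested were higher and lower. AU2-94 at 2 µM gave 10 higher and 9 lower, against 16.0% and 14.9% of all genes. With atirmociclib at 1 µM, 10 members were higher and 9 lower, against 16.6% and 15.4%. With atirmociclib at 2 µM, 9 were higher and 8 lower, against 18.6% and 16.2%. This split turned to 8 higher and 11 lower when every library was scaled to an equal total. Ribociclib gave 8 higher and 12 lower, against 16.8% and 15.2%. The medians of the members' log2 fold changes lay between -0.0043 and 0.074 and those of all genes between -0.0032 and 0.0049, so the medians near 0 hid the opposite changes.

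At 72 h, AU2-94 at 1 µM gave 9 members higher and 11 lower, where 15.4% and 17.0% of the 16341 genes tested were higher and lower. AU2-94 at 2 µM gave 8 higher and 11 lower, against 14.2% and 15.3%. With atirmociclib, 9 members were higher and 15 lower at 1 µM, against 20.0% and 19.8%, and 10 were higher and 17 lower at 2 µM, against 20.9% and 19.6%. Ribociclib gave 9 higher and 14 lower, against 15.5% and 15.4%. With AU2-94 the lean towards lower members rested on single libraries. With 1 library left out, AU2-94 at 1 µM gave 7 to 9 members higher and 8 to 10 lower. At 2 µM it gave 8 higher and 8 to 12 lower. The members' medians were -0.18 to -0.087 on the log2 scale, whereas those of all genes were -0.0083 to 0.0059.

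Members are expressed more strongly than most genes, and strongly expressed genes were called more often. Of the 11289 genes whose mean normalised count was 100 or more at 24 h, which include 34 of the members, 18.8% to 25.4% were higher and 18.0% to 19.7% lower, depending on the treatment. The 72 h shares among 11344 such genes, 33 members included, were 16.6% to 25.6% higher and 21.0% to 26.6% lower. With AU2-94 at 72 h these genes also leaned lower, 17.5% being higher and 24.2% lower at 1 µM and 16.6% and 21.8% at 2 µM. Members that passed a 2-fold change were 1 to 7 of the 36. At 24 h, 2 members passed it with each dose of AU2-94 (4.00% of all genes at 1 µM and 5.03% at 2 µM), 2 with each dose of atirmociclib (5.72% and 6.08%) and 3 with ribociclib (5.05%). At 72 h, 2 members passed it with AU2-94 at 1 µM (4.38%), 1 with AU2-94 at 2 µM (3.86%), 7 with atirmociclib at 1 µM (6.74%), 4 with atirmociclib at 2 µM (7.54%) and 2 with ribociclib (4.49%).

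**Figure D1:**
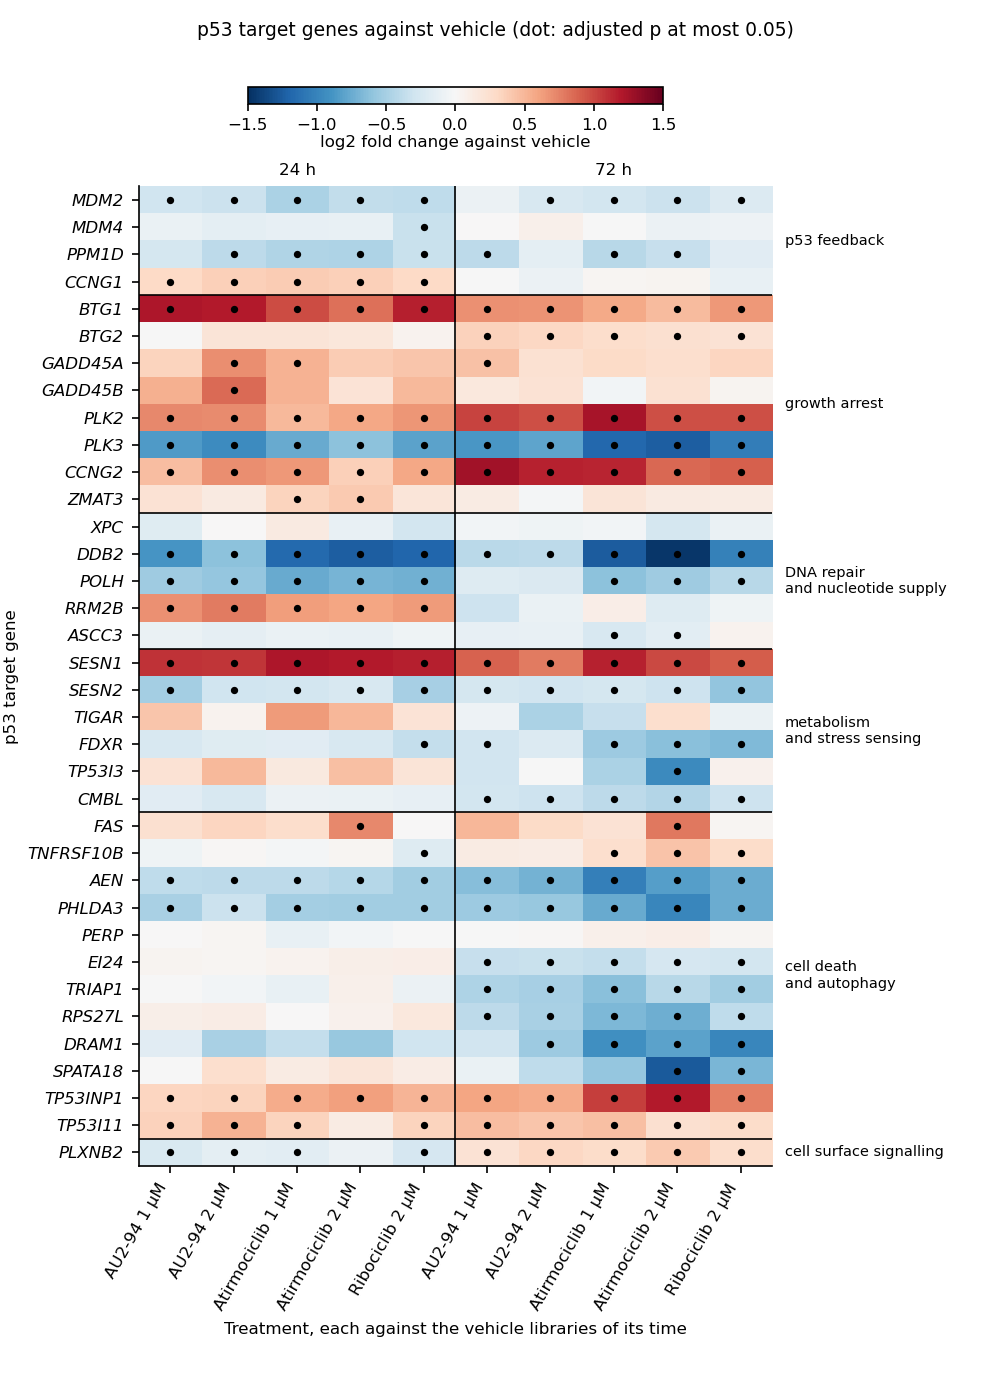
log2 fold change of each of the 36 p53 target genes (rows, ordered by role) against the vehicle libraries of the same time, for the 5 treatments at 24 h and at 72 h (columns); red is higher, blue is lower and a dot marks an adjusted p of at most 0.05. The rows of BTG1, PLK2, CCNG2, SESN1 and TP53INP1 are red and those of PLK3, DDB2, SESN2, AEN and PHLDA3 blue with a dot in all 10 columns.

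Among the members that act back on p53, MDM2 fell and CCNG1 rose at 24 h. MDM2, the ubiquitin ligase that degrades p53, is encoded on chromosome 12 (68808177 to 68845544, + strand). At 24 h its normalised counts were 5882, 5475 and 5801 in vehicle libraries and 4564, 4487 and 4135 in ribociclib libraries. AU2-94 gave 4484, 5082 and 4432 at 1 µM and 4835, 4329 and 4613 at 2 µM, and atirmociclib gave 3835, 4188 and 4312 at 1 µM and 4648, 4342 and 4340.0 at 2 µM. All 15 treated libraries lay below the lowest vehicle library. Changes on the log2 scale were -0.30 and -0.32 with AU2-94 at 1 and 2 µM, -0.48 and -0.36 with atirmociclib and -0.38 with ribociclib (SE 0.061 each), with adjusted p from 7.71e-06 to 0.00133.

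MDM2 was also lower at 72 h, except with AU2-94 at 1 µM, where it was not called. The normalised counts of MDM2 at 72 h were 6343, 5755 and 5899 in vehicle libraries and 5155, 5329 and 5075 in ribociclib libraries. AU2-94 gave 5693, 5862 and 5325 at 1 µM and 5423, 4780.1 and 5078 at 2 µM, and atirmociclib gave 5155, 4938 and 4730.4 at 1 µM and 4686, 5071 and 4681 at 2 µM. AU2-94 at 1 µM overlapped with vehicle (log2 fold change -0.092, adjusted p = 0.214), and the other 12 treated libraries lay below all 3 vehicle libraries. Their log2 fold changes were -0.24 with AU2-94 at 2 µM, -0.28 and -0.32 with atirmociclib and -0.21 with ribociclib. MDM2 overlaps another gene on the opposite strand over 785 exon bases (9.5%), and since the strand setting of the counting is not given in the sources used here, reads of that stretch cannot be told apart.

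CCNG1 encodes cyclin G1, which brings the phosphatase PP2A to MDM2. Its normalised counts were 3004, 3149 and 2875 in the 24 h vehicle libraries, and all 15 treated libraries lay above them. The log2 fold changes at 24 h were 0.30 to 0.38, whereas at 72 h they were -0.12 to 0.038 and none was called. PPM1D, a phosphatase that removes activating phosphates from p53 and its kinases, was lower in 4 treatments at 24 h (-0.47 to -0.34; AU2-94 at 1 µM gave -0.26, adjusted p = 0.0869) and in 3 at 72 h (-0.41 to -0.34). Leaving out 1 library, vehicle replicate 1 at 24 h or vehicle replicate 3 at 72 h among others, ended the PPM1D call in 4 of these 7 comparisons (adjusted p up to 0.127, for ribociclib at 24 h). MDM4, the partner of MDM2 that covers the activation domain of p53, was called only with ribociclib at 24 h (-0.34, SE 0.084) and gave -0.091 to 0.073 at 72 h.

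The growth arrest members held pairs of paralogous genes that moved apart or at different times. BTG1 and BTG2 encode small antiproliferative proteins that bind the CCR4-NOT deadenylase. BTG1 (chromosome 12, 92140278 to 92145846, - strand) was the member with the second largest mean effect of the 5 treatments at 24 h. Normalised counts of BTG1 at 24 h were 2064, 2025 and 2074 in vehicle libraries and 4969.9, 4269.7 and 4673 in ribociclib libraries. AU2-94 gave 4621, 4800.1 and 4814 at 1 µM and 4863, 4799 and 4422 at 2 µM, and atirmociclib gave 4189, 4079 and 3839 at 1 µM and 3799, 3878 and 3321 at 2 µM. No treated library came near vehicle, and every library of AU2-94 and ribociclib lay above every library of atirmociclib. This gave log2 fold changes of 1.21 and 1.19 with AU2-94, 0.97 and 0.83 with atirmociclib and 1.17 with ribociclib (SE 0.062).

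At 72 h BTG1 was higher in vehicle than at 24 h, and it was still called higher in all 5 treatments. Its normalised counts at 72 h were 2583, 2825 and 2516 in vehicle libraries and 4498, 3664 and 4345 in ribociclib libraries. AU2-94 gave 4203, 4201 and 4285 at 1 µM and 3924, 4431 and 4333 at 2 µM, and atirmociclib gave 3914, 4128 and 3676 at 1 µM and 3599.9, 3670.2 and 3760.5 at 2 µM. The treated libraries again all lay above vehicle, with log2 fold changes of 0.48 to 0.68. BTG2 was not called at 24 h in any treatment (-0.00098 to 0.19) and was higher in all 5 at 72 h (0.21 to 0.34), where its counts were 1036, 1166 and 1193 in vehicle and 1250.1 to 1486 in the 15 treated libraries. Without vehicle replicate 1 or ribociclib replicate 2 the BTG2 call with ribociclib was lost (adjusted p up to 0.0856), as it was in a fit of those 2 groups only (0.0717). BTG1 overlaps LINC01619 over 503 exon bases on its own strand and BTG1-DT over 274 on the other, and reads of these stretches cannot be told apart.

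PLK2 and PLK3 encode polo-like kinases of the stress response, and they moved in opposite directions in all 10 comparisons. PLK2 (chromosome 5, 58453982 to 58460139, - strand), 1 of the genes with a p53 site near its start, rose. PLK2 normalised counts at 24 h were 673, 641 and 681 in vehicle libraries and 1103, 908 and 1156 in ribociclib libraries. AU2-94 gave 989, 1058 and 1248 at 1 µM and 1059.7, 971 and 1238 at 2 µM, and atirmociclib gave 971, 998 and 826 at 1 µM and 1071, 985 and 941 at 2 µM. No treated library overlapped with vehicle. In log2 units the differences were 0.72 and 0.70 with AU2-94, 0.48 and 0.58 with atirmociclib and 0.66 with ribociclib (SE 0.11).

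At 72 h the counts of PLK2 were 417, 332 and 439.6 in vehicle libraries and 782, 757 and 778 in ribociclib libraries. AU2-94 gave 851, 890.3 and 663 at 1 µM and 768, 817 and 729 at 2 µM, and atirmociclib gave 988, 845 and 952 at 1 µM and 688, 824 and 806 at 2 µM. Vehicle held less PLK2 than at 24 h, and no treated library overlapped with it. Against vehicle, the log2 fold changes were 1.01 and 0.97 with AU2-94, 1.23 and 0.97 with atirmociclib and 0.97 with ribociclib (SE 0.11).

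PLK3 (chromosome 1, 44800377 to 44805990, + strand) fell in all 10. PLK3 normalised counts at 24 h were 122, 136 and 134 in vehicle libraries and 78.5, 89.7 and 58.4 in ribociclib libraries. AU2-94 gave 64.6, 76.7 and 74.6 at 1 µM and 68.4, 56.5 and 78.9 at 2 µM, and atirmociclib gave 99.96, 64.8 and 70.4 at 1 µM and 70.0, 90.6 and 95.6 at 2 µM. All 15 treated libraries lay below vehicle, with log2 fold changes of -0.94 to -0.62 (SE 0.20). With atirmociclib at 2 µM the call was lost after quantile normalisation (adjusted p = 0.0839) and without atirmociclib replicate 1, vehicle replicate 2 or vehicle replicate 3 (adjusted p up to 0.109).

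PLK3 normalised counts at 72 h were 144, 149.9 and 151 in vehicle libraries and 79.9, 83.4 and 55.8 in ribociclib libraries. AU2-94 gave 109, 62.4 and 78.3 at 1 µM and 67.8, 77.8 and 117 at 2 µM, and atirmociclib gave 78.8, 63.3 and 55.5 at 1 µM and 57.0, 66.6 and 64.2 at 2 µM. Again no treated library reached the lowest vehicle library. The log2 fold changes were -0.87 and -0.80 with AU2-94, -1.18 and -1.24 with atirmociclib and -1.04 with ribociclib (SE 0.23). Without replicate 1 of AU2-94 at 2 µM that treatment's adjusted p rose to 0.0641.

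CCNG2, an unconventional cyclin that accumulates as cells leave the cycle, was the member with the largest mean effect at 72 h (chromosome 4, 77157207 to 77433388, + strand). CCNG2 normalised counts at 24 h were 1152, 1043 and 1012 in vehicle libraries and 1650.2, 1586 and 1569.9 in ribociclib libraries. AU2-94 gave 1267, 1588 and 1574 at 1 µM and 1863, 1689 and 1639 at 2 µM, and atirmociclib gave 1846, 1521 and 1661 at 1 µM and 1646, 1354 and 1142 at 2 µM. All but 1 of the 15 treated libraries, replicate 3 of atirmociclib at 2 µM, lay above the highest vehicle library, and the log2 fold changes were 0.36 to 0.69. The lowest of these, atirmociclib at 2 µM, lost its call with equal totals (adjusted p = 0.0608) and without atirmociclib replicate 1, vehicle replicate 2 or vehicle replicate 3 (adjusted p up to 0.128).

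CCNG2 normalised counts at 72 h were 1136, 1264 and 1101 in vehicle libraries and 2405, 1763 and 2394 in ribociclib libraries. AU2-94 gave 2820.0, 2777 and 2769 at 1 µM and 2381, 2741 and 2699 at 2 µM, and atirmociclib gave 2559, 2502 and 2678 at 1 µM and 1917, 2229 and 2225 at 2 µM. Every treated library stood clear of vehicle. Changes on the log2 scale were 1.26 and 1.16 with AU2-94, 1.15 and 0.86 with atirmociclib and 0.89 with ribociclib (SE 0.10). CCNG1, its paralogue, was called only at 24 h.

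GADD45A and GADD45B, small acidic proteins that link stress to growth arrest and MAP kinase signalling, gave log2 fold changes above 0 in all 5 treatments at 24 h, with few calls. GADD45A was called with AU2-94 at 2 µM (0.70) and atirmociclib at 1 µM (0.52) at 24 h and with AU2-94 at 1 µM at 72 h (0.44), and GADD45B only with AU2-94 at 2 µM at 24 h (0.85, SE 0.26). Among these 4 calls, that of GADD45A with AU2-94 at 2 µM held with each library left out, and the others were lost with any of 2 to 4 libraries left out, vehicle replicate 2 at 24 h and vehicle replicates 1 and 3 at 72 h among them (adjusted p up to 0.134). ZMAT3, an RNA-binding zinc finger protein with a p53 site in an intron, was higher with atirmociclib at 24 h (0.34 at 1 µM and 0.39 at 2 µM) and not called in the other 8 comparisons (-0.028 to 0.21). At 1 µM the ZMAT3 call was lost with any of 3 libraries left out, atirmociclib replicates 1 and 3 and vehicle replicate 1 (adjusted p up to 0.0690).

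**Figure D2:**
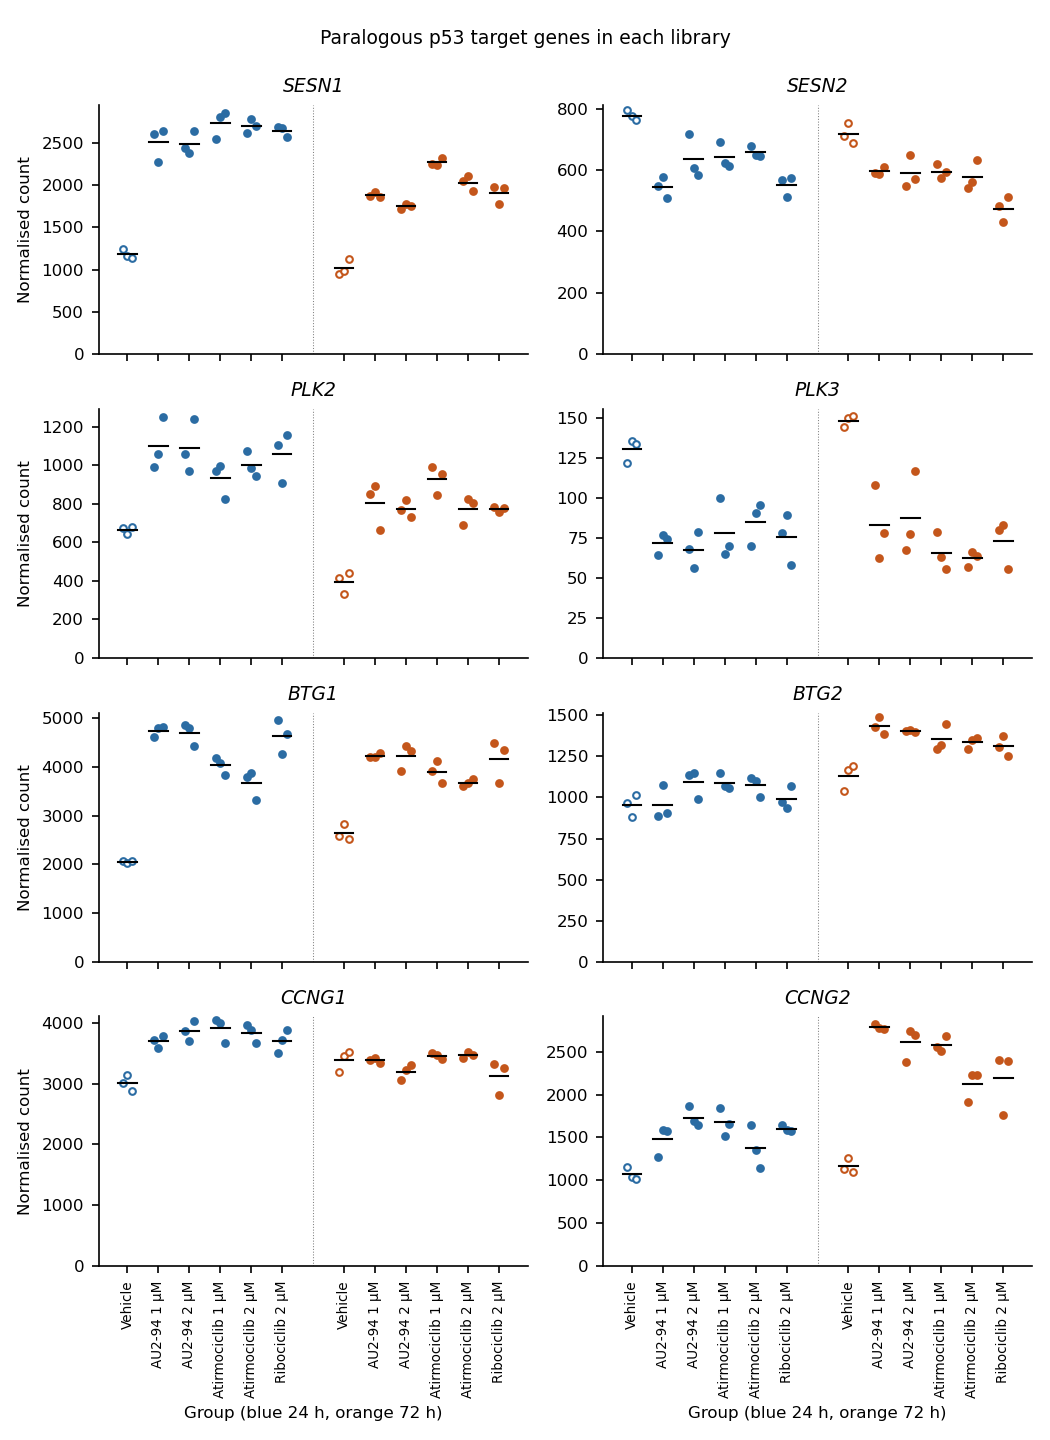
Normalised counts (y axis, from 0) of 4 pairs of paralogous p53 target genes in each of the 36 libraries, by group (x axis); blue points are 24 h, orange points 72 h, open points vehicle, and black bars group means. SESN1 and PLK2 lie above vehicle and SESN2 and PLK3 below it in every treated library at both times, BTG2 lies above vehicle in every treated library only at 72 h, and CCNG1 only at 24 h.

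In DNA repair and nucleotide supply, DDB2 and POLH fell, RRM2B rose at 24 h, and XPC and ASCC3 were called in few treatments or none. DDB2, which recognises ultraviolet damage in nucleotide excision repair (chromosome 11, 47214465 to 47239217, + strand), carries the p53 site shown above in an exon. DDB2 normalised counts at 24 h were 541, 664 and 621 in vehicle libraries and 214, 269 and 322 in ribociclib libraries. AU2-94 gave 361, 291 and 334 at 1 µM and 380.1, 567 and 288 at 2 µM, and atirmociclib gave 276, 264 and 272 at 1 µM and 308, 306 and 178 at 2 µM. Every treated library but 1, replicate 2 of AU2-94 at 2 µM, lay below all vehicle libraries. This gave log2 fold changes of -0.89 and -0.61 with AU2-94, -1.16 and -1.24 with atirmociclib and -1.19 with ribociclib (SE 0.22). The call for AU2-94 at 2 µM (adjusted p = 0.0409) was lost after quantile normalisation, without the filter, without the trend (adjusted p up to 0.0736) and without AU2-94 replicate 1 or 3 or vehicle replicate 2 or 3 (up to 0.219).

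DDB2 normalised counts at 72 h were 645, 763 and 652 in vehicle libraries and 361, 318 and 339 in ribociclib libraries. AU2-94 gave 514, 525 and 506 at 1 µM and 536, 528 and 505 at 2 µM, and atirmociclib gave 267, 278 and 317 at 1 µM and 213, 271 and 268 at 2 µM. No treated library overlapped with vehicle, and every library of AU2-94 lay above every library of the other agents. In log2 units the differences were -0.41 and -0.39 with AU2-94, -1.25 and -1.46 with atirmociclib and -1.01 with ribociclib (SE 0.10).

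POLH encodes DNA polymerase eta, which copies past ultraviolet lesions (chromosome 6, 43576185 to 43620523, + strand). Normalised counts of POLH at 24 h were 913, 839.7 and 839 in vehicle libraries and 519.7, 529 and 528 in ribociclib libraries. AU2-94 gave 524, 604 and 667 at 1 µM and 673, 562 and 506 at 2 µM, and atirmociclib gave 529, 485 and 522 at 1 µM and 598, 510.5 and 490.3 at 2 µM. All 15 treated libraries lay below vehicle, with log2 fold changes of -0.75 to -0.54 (SE 0.10). At 72 h the counts of POLH were 772, 786 and 772 in vehicle libraries and 585, 537 and 631 in ribociclib libraries. AU2-94 gave 669, 694 and 678 at 1 µM and 643, 682 and 682 at 2 µM, and atirmociclib gave 519.7, 532 and 474 at 1 µM and 573, 472 and 576 at 2 µM. All 15 again lay below vehicle. AU2-94 was not called at 1 µM (-0.19, adjusted p = 0.0846) or at 2 µM (-0.22, adjusted p = 0.0558), and atirmociclib (-0.61 and -0.53) and ribociclib (-0.41) were.

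RRM2B, the p53-inducible small subunit of ribonucleotide reductase (chromosome 8, 102204502 to 102238961, - strand), rose at 24 h only. RRM2B normalised counts at 24 h were 847, 908 and 801 in vehicle libraries and 1289.7, 1473 and 1214 in ribociclib libraries. AU2-94 gave 1219, 1479 and 1433 at 1 µM and 1526, 1372 and 1483 at 2 µM, and atirmociclib gave 1464, 1354 and 1139 at 1 µM and 1207, 1383 and 1262 at 2 µM. Each treated library exceeded each vehicle library, and the log2 fold changes were 0.59 to 0.78 (SE 0.10). RRM2B normalised counts at 72 h were 1198, 887 and 1155 in vehicle libraries and 1124, 1049 and 908 in ribociclib libraries. AU2-94 gave 961, 802 and 841 at 1 µM and 960.2, 1231 and 849.7 at 2 µM, and atirmociclib gave 925, 1221 and 1331 at 1 µM and 842, 869.8 and 1119 at 2 µM. Here the groups overlapped and no treatment was called (-0.31 to 0.10, SE 0.16). XPC, the other damage sensor of excision repair, was called in none of the 10 comparisons (-0.28 to 0.14), and ASCC3, a helicase of alkylation repair, was lower only with atirmociclib at 72 h (-0.24 at 1 µM and -0.16 at 2 µM). The ASCC3 call at 2 µM was lost without atirmociclib replicate 2 or vehicle replicate 1 (adjusted p up to 0.0760).

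In metabolism and stress sensing, the sestrins SESN1 and SESN2, which restrain the growth kinase mTORC1, moved in opposite directions in all 10 comparisons. SESN1 (chromosome 6, 108984309 to 109094846, - strand) had the largest mean effect of all members at 24 h. SESN1 normalised counts at 24 h were 1249.9, 1166 and 1133 in vehicle libraries and 2683, 2680.1 and 2569 in ribociclib libraries. AU2-94 gave 2610.5, 2280.1 and 2642 at 1 µM and 2434, 2376 and 2643 at 2 µM, and atirmociclib gave 2545, 2809.8 and 2859 at 1 µM and 2615, 2787 and 2704 at 2 µM. The lowest treated library stood far above the highest vehicle library, and the log2 fold changes were 1.07 to 1.21 (SE 0.064). SESN1 normalised counts at 72 h were 952, 988 and 1123 in vehicle libraries and 1984, 1781 and 1967 in ribociclib libraries. AU2-94 gave 1869, 1916 and 1855 at 1 µM and 1719, 1779 and 1752 at 2 µM, and atirmociclib gave 2250.4, 2233 and 2323 at 1 µM and 2048, 2104 and 1930.5 at 2 µM. Vehicle was lower than at 24 h, and all treated libraries again exceeded it, with log2 fold changes of 0.88 and 0.78 with AU2-94, 1.15 and 0.99 with atirmociclib and 0.91 with ribociclib.

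SESN2, which unlike SESN1 is also a known ATF4 target, was lower in every treated library than in any vehicle library. Its normalised counts were 795, 775 and 762 in vehicle and 509 to 718 in the 15 treated libraries at 24 h, and 711, 752 and 688 in vehicle and 431 to 650.2 in treated libraries at 72 h. Against vehicle, the log2 fold changes were -0.51 to -0.24 at 24 h and -0.60 to -0.26 at 72 h. The 2 doses of atirmociclib at 24 h and AU2-94 at 1 µM at 72 h lost the call after quantile normalisation (adjusted p up to 0.107), and in 6 of the 10 comparisons at least 1 library left out ended it (up to 0.0862). These were vehicle replicate 1 for both doses of atirmociclib at 24 h, replicate 3 of AU2-94 at 2 µM at 24 h and vehicle replicate 2 for the 3 comparisons at 72 h, among others.

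Other metabolic members were called mainly at 72 h, and all calls were lower. CMBL, a cytosolic hydrolase, was lower in all 5 treatments at 72 h (-0.44 to -0.27) and called in none at 24 h (-0.24 to -0.089). FDXR, the mitochondrial reductase that passes electrons to ferredoxin, was lower with ribociclib at 24 h (-0.35) and at 72 h with ribociclib (-0.66), atirmociclib (-0.55 and -0.63) and AU2-94 at 1 µM (-0.29). Without 1 of several libraries the CMBL calls of AU2-94 and ribociclib (adjusted p up to 0.0844) and the FDXR calls of ribociclib at 24 h and of AU2-94 (up to 0.0863) were lost, vehicle replicate 2 being among them for 4 of these 5. TIGAR, which lowers fructose 2,6-bisphosphate and so slows glycolysis, was called in no comparison and varied widely (-0.48 to 0.64, SE 0.28 at 24 h).

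TP53I3, a quinone oxidoreductase, was weakly expressed and was called once, lower with atirmociclib at 2 µM at 72 h. Its counts there were 12.4, 17.3 and 19.0 against 48.9, 25.0 and 26.6 in vehicle, a log2 fold change of -0.95 (SE 0.36, adjusted p = 0.0412). The adjusted p was 0.0524 with the replicate block and up to 0.199 without atirmociclib replicate 1 or 2 or vehicle replicate 1.

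Among the members of cell death and autophagy, TP53INP1 rose and AEN and PHLDA3 fell in all 10 comparisons, and EI24, TRIAP1 and RPS27L were called only at 72 h. TP53INP1, a stress protein that acts in autophagy and in the nucleus (chromosome 8, 94925972 to 94949378, - strand), had the smallest adjusted p of any member at 72 h. TP53INP1 normalised counts at 24 h were 4436, 4489 and 4312 in vehicle libraries and 6176, 6401 and 6327 in ribociclib libraries. AU2-94 gave 5582, 5506 and 5523 at 1 µM and 5473, 5669 and 5561 at 2 µM, and atirmociclib gave 6539, 6563 and 6387 at 1 µM and 6406, 6609.9 and 7284 at 2 µM. All treated libraries exceeded vehicle, and those of atirmociclib and ribociclib all exceeded those of AU2-94. The log2 fold changes were 0.33 and 0.34 with AU2-94, 0.56 and 0.61 with atirmociclib and 0.51 with ribociclib (SE 0.041).

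TP53INP1 normalised counts at 72 h were 4292, 4397 and 4334 in vehicle libraries and 7529, 7177 and 7275 in ribociclib libraries. AU2-94 gave 6373, 6569 and 6636 at 1 µM and 6278, 6523 and 6339 at 2 µM, and atirmociclib gave 9025, 8868 and 8769 at 1 µM and 10162, 9697 and 9755 at 2 µM. From low to high the groups stood in the order vehicle, AU2-94, ribociclib, then atirmociclib at its lower and its higher dose, and they did not overlap except for the doses of AU2-94. Changes on the log2 scale were 0.59 and 0.56 with AU2-94, 1.03 and 1.18 with atirmociclib and 0.75 with ribociclib (SE 0.035). TP53INP1 overlaps NDUFAF6 over 225 exon bases on the opposite strand.

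AEN, a nuclease that promotes apoptosis, and PHLDA3, which competes with AKT for membrane lipids, fell in all 10 comparisons. AEN counts were 1156, 1234 and 1245 in vehicle and 806 to 1031 in treated libraries at 24 h, and 1235, 1387 and 1423 against 623 to 982 at 72 h. The log2 fold changes of AEN were -0.52 to -0.38 at 24 h and -1.02 to -0.64 at 72 h. PHLDA3 counts were 828, 835 and 839.6 against 520.1 to 714 at 24 h and 987, 1022 and 1006 against 489 to 755 at 72 h, with log2 fold changes of -0.52 to -0.32 and -0.98 to -0.55. For neither gene did a treated library reach a vehicle library of its time. Without replicate 3 of AU2-94 at 2 µM, the PHLDA3 call of that treatment at 24 h was lost (adjusted p = 0.0542), and PHLDA3 overlaps another gene on its own strand over 598 exon bases (18.4%).

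EI24, an endoplasmic reticulum protein of autophagy, TRIAP1, a small mitochondrial survival factor, and RPS27L, a relative of ribosomal protein S27, were called in no treatment at 24 h and were lower in all 5 at 72 h. Their log2 fold changes at 72 h were -0.36 to -0.25 for EI24, -0.62 to -0.42 for TRIAP1 and -0.73 to -0.38 for RPS27L. RPS27L counts were 1201, 1358 and 1314 in vehicle at 24 h and 1689.8, 1634 and 1541 at 72 h, against 1203 to 1464 and 941 to 1311 in the treated libraries. The groups of RPS27L thus overlapped at 24 h and did not at 72 h. DRAM1, a lysosomal protein of autophagy, was lower in 4 treatments at 72 h (-0.97 to -0.55), and SPATA18, which acts in mitochondrial quality control, with atirmociclib at 2 µM (-1.26) and ribociclib (-0.68). The DRAM1 call with AU2-94 at 2 µM was lost under 3 other settings (adjusted p up to 0.0665) and with any of 5 of its 6 libraries left out, all but vehicle replicate 3 (up to 0.144). The SPATA18 call with ribociclib was lost under 2 other settings (up to 0.0589) and without ribociclib replicate 1 or 2 or vehicle replicate 1 or 3 (up to 0.162).

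The death receptors FAS and TNFRSF10B changed in fewer treatments. FAS was higher with atirmociclib at 2 µM at both times, with counts of 250.1, 219 and 168 against 124, 147 and 113 in vehicle at 24 h and 221, 191 and 199 against 111, 112 and 129 at 72 h. This gave log2 fold changes of 0.72 and 0.79, that at 24 h being lost without atirmociclib replicate 1 or vehicle replicate 3 (adjusted p up to 0.0634), and no other treatment was called (0.0049 to 0.50). TNFRSF10B changed direction with ribociclib. It was lower with ribociclib at 24 h (-0.19) and higher at 72 h with ribociclib (0.27) and atirmociclib (0.25 and 0.43). The 72 h calls with ribociclib and with atirmociclib at 1 µM were lost without vehicle replicate 1 (adjusted p up to 0.0744), and also without ribociclib replicate 1 and atirmociclib replicate 3. PERP, a desmosomal protein, was called nowhere (-0.11 to 0.10).

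TP53I11 was higher in 4 treatments at 24 h (0.33 to 0.52, atirmociclib at 2 µM giving 0.12) and in all 5 at 72 h (0.25 to 0.47). The 72 h calls of atirmociclib at 2 µM and of ribociclib were lost under other settings (adjusted p up to 0.153) and with single libraries left out, among them vehicle replicates 1 and 2 (up to 0.185). PLXNB2, a semaphorin receptor (chromosome 22, 50274979 to 50307646, - strand), had a mean effect of the 5 treatments that was called lower at 24 h and higher at 72 h, which no other member had. Its normalised counts at 24 h were 5431, 5658 and 5484 in vehicle libraries and 4725, 4374 and 4845 in ribociclib libraries. AU2-94 gave 4757, 4738 and 4607 at 1 µM and 5114, 5114 and 4713 at 2 µM, and atirmociclib gave 5161, 4555 and 5109.7 at 1 µM and 5218, 5469 and 4885 at 2 µM. All but 1 of the 15 treated libraries, replicate 2 of atirmociclib at 2 µM, lay below vehicle, and the log2 fold changes were -0.25 to -0.15 in the 4 treatments called and -0.091 with atirmociclib at 2 µM, which was not called.

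PLXNB2 normalised counts at 72 h were 4858, 5399 and 5057 in vehicle libraries and 6224, 5458 and 6784 in ribociclib libraries. AU2-94 gave 6132, 5964 and 5649 at 1 µM and 6814, 5865 and 6328 at 2 µM, and atirmociclib gave 6117, 6343 and 6080.3 at 1 µM and 6805, 6842 and 6426 at 2 µM. Now all 15 treated libraries lay above vehicle, with log2 fold changes of 0.21 to 0.39 (SE 0.067). At 24 h the calls for AU2-94 at 2 µM and atirmociclib at 1 µM were lost without the filter or the trend (adjusted p up to 0.0893), and the former also with the replicate block (adjusted p = 0.0573). With single libraries left out, vehicle replicates 2 and 3 among them, they reached up to 0.187, and the call for AU2-94 at 1 µM at 72 h reached up to 0.0877 without vehicle replicate 1 or 3 or AU2-94 replicate 1 or 2.

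**Figure D3:**
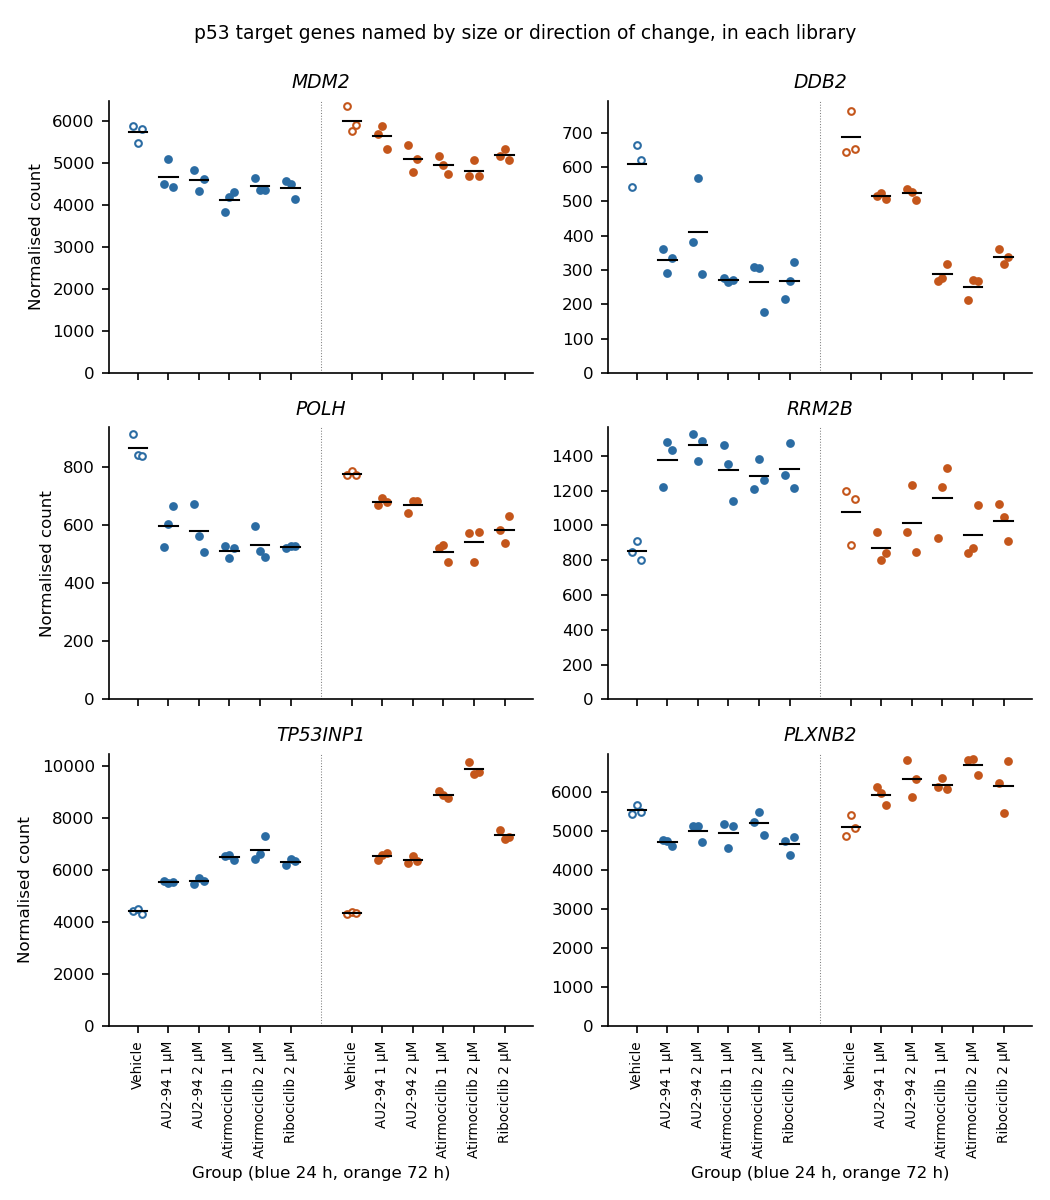
Normalised counts (y axis, from 0) of MDM2, DDB2, POLH, RRM2B, TP53INP1 and PLXNB2 in each of the 36 libraries, by group (x axis); blue points are 24 h, orange points 72 h, open points vehicle, and black bars group means. RRM2B exceeds vehicle in all 15 treated libraries only at 24 h, PLXNB2 lies below vehicle in 14 of 15 treated libraries at 24 h and above it in 15 of 15 at 72 h, and TP53INP1 reaches 10162 with atirmociclib at 2 µM.

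Whether the effect of a treatment differed between the times was tested by subtracting the 24 h effect from the 72 h effect in 1 fit over the 36 libraries and 16850 genes. With AU2-94, 10 members were called at 1 µM (21.6% of all genes) and 10 at 2 µM (18.5%). With atirmociclib, 12 were called at 1 µM (21.9%) and 15 at 2 µM (21.6%), and with ribociclib 10 (20.2%). The shares of members were thus 27.8% to 41.7%. These differences were negative for 6 and 7 and positive for 4 and 3 members with AU2-94 at 1 and 2 µM, and scaling to equal totals turned this to 5 and 5 negative and 8 and 4 positive.

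In all 5 treatments the effect on CCNG1, BTG1, EI24, TRIAP1 and RPS27L was lower at 72 h than at 24 h and that on TP53INP1 and PLXNB2 higher. How many of all genes were called in all 5 was not counted. RRM2B was called in 4 of 5, with differences of -1.0 to -0.70, and -0.53 for atirmociclib at 1 µM, which was not called (adjusted p = 0.0503). CCNG2 gained effect in 4 of 5 (0.46 to 0.80, ribociclib giving 0.31). All but that of AU2-94 at 1 µM were lost without vehicle replicate 1 at 24 h, among other libraries (adjusted p up to 0.0903). The TRIAP1 difference was lost for both doses of AU2-94 and for ribociclib with equal totals (up to 0.0555) and without vehicle replicate 3 at 24 h or vehicle replicate 2 at 72 h, among others (up to 0.106). The effect on MDM2 was not called different in any treatment (0.047 to 0.20, SE 0.084). Nor was that on DDB2 (-0.22 to 0.48, SE 0.25) or POLH (0.14 to 0.37, SE 0.13).

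Vehicle itself moved over time in 6 of the 36 members, against 7.50% of all genes. BTG1 (log2 difference of 72 h minus 24 h 0.36), RPS27L (0.33), BTG2 (0.24) and CCNG1 (0.17) were higher and PLK2 (-0.76) and SESN1 (-0.22) lower at 72 h. For BTG1, RPS27L and CCNG1 vehicle thus rose while the treated effect declined. For PLK2 vehicle fell while the effect rose with atirmociclib at 1 µM (0.75) and was not called different otherwise. SESN1 and BTG2 went the other way. SESN1 fell in vehicle, and its effect was also lower at 72 h (-0.29 to -0.054), called with AU2-94 at 2 µM and ribociclib. BTG2 rose in vehicle, and its effect was also higher at 72 h (0.067 to 0.34), called with AU2-94 at 1 µM. Each of these calls on the effect was lost with some single libraries left out (adjusted p up to 0.141). The effect is measured against these same vehicle libraries, so a change of vehicle enters it with the opposite sign and the 2 are not separate observations. Without vehicle replicate 1 at 24 h or vehicle replicate 2 at 72 h, CCNG1, BTG2 and SESN1 lost the call in vehicle (adjusted p up to 0.149). With equal totals CCNG1 and BTG2 lost it (0.194 and 0.114), and CCNG1 also with the replicate block (0.0601).

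**Figure D4:**
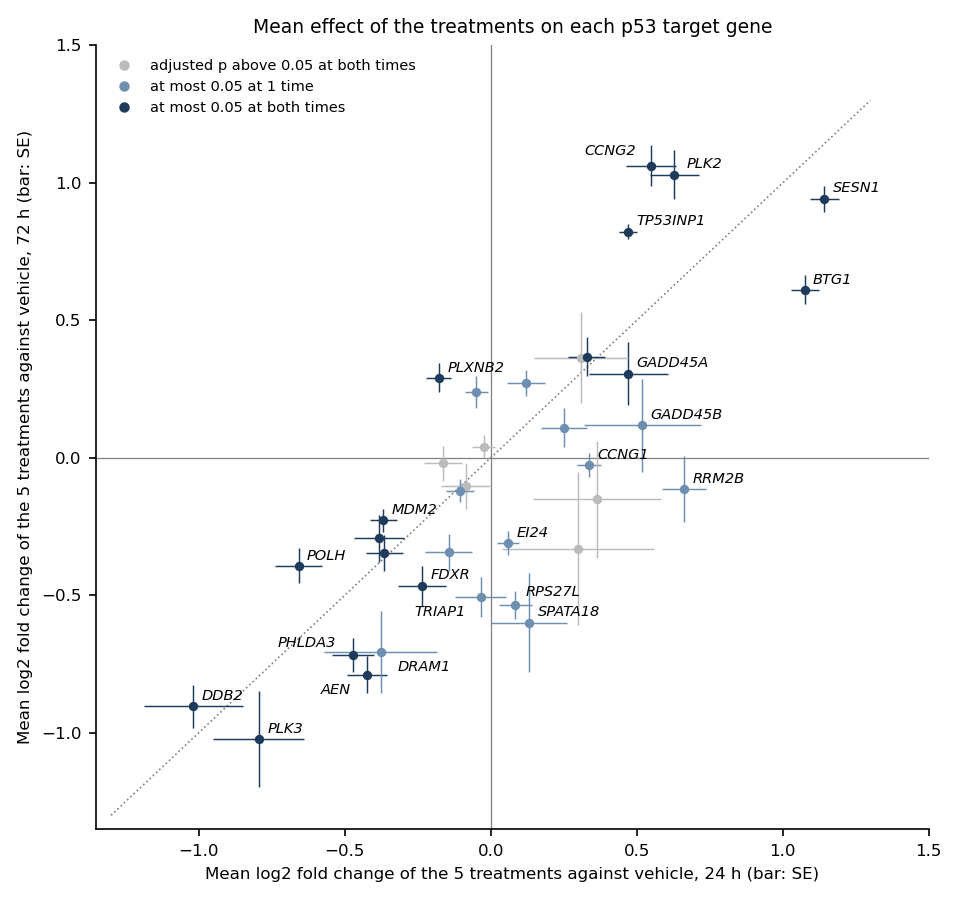
Mean log2 fold change of the 5 treatments against vehicle at 24 h (x axis) and at 72 h (y axis) for each of the 36 p53 target genes, with bars of 1 SE; darker points passed an adjusted p of 0.05 at more of the times, and the dotted line marks equal effects. SESN1 (1.14 at 24 h, 0.94 at 72 h) and DDB2 (-1.02, -0.90) lie near the line, CCNG2 (0.55, 1.06) lies above it, and RRM2B (0.66, -0.11) and BTG1 (1.07, 0.61) lie below it.

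Members called different between the agents at 24 h made up 0% to 8.33% of the list, near the shares of all genes given with each comparison. Atirmociclib against AU2-94 at 1 µM gave 2 members called (4.64% of all genes): TP53INP1 was higher by 0.23 (95% interval 0.14 to 0.32) and BTG1 lower (-0.23, -0.36 to -0.10). At 2 µM 3 were called (9.44%), TP53INP1 (0.28) higher and BTG1 (-0.36) and TP53I11 (-0.40) lower with atirmociclib. Atirmociclib against ribociclib gave 2 (4.64%), TNFRSF10B higher (0.22) and BTG1 lower (-0.34). Ribociclib against AU2-94 at 2 µM gave 0 members by limma (0.0372% of all genes), with 8 at an unadjusted p under 0.05 and differences from -0.58 to 0.18. With any of its 6 libraries left out, the BTG1 difference at 1 µM was lost (adjusted p up to 0.149). The TNFRSF10B difference was lost without atirmociclib replicate 1 or 3 or ribociclib replicate 2 or 3 (up to 0.0824) and in a fit of those groups only (0.0553).

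More members were called between agents at 72 h (11.1% to 30.6% of the list), and so were more of all genes. Atirmociclib against AU2-94 at 1 µM gave 8 members (8.24%), of which SESN1 (0.27) and TP53INP1 (0.45) were higher and DDB2 (-0.84), DRAM1 (-0.64), POLH (-0.42), AEN (-0.38), RPS27L (-0.28) and MDM2 (-0.19) lower. At 2 µM 11 were called (19.8%). SESN1 (0.21), TNFRSF10B (0.32) and TP53INP1 (0.63, interval 0.56 to 0.70) were higher. DDB2 was lower by more than any other member (-1.07, interval -1.28 to -0.86), followed by SPATA18 (-0.88), FDXR (-0.43), PHLDA3 (-0.41), POLH (-0.31), CCNG2 (-0.30), RPS27L (-0.25) and BTG1 (-0.20). Scaling to equal totals moved the median of all genes in this contrast by -0.10 and the split from 3 higher and 8 lower to 1 and 14, and at 1 µM from 2 and 6 to 1 and 9. SESN1 lost its call at both doses with equal totals (adjusted p = 0.0616 and 0.25), and the replicate block ended the calls of DRAM1 at 1 µM (0.0507) and BTG1 at 2 µM (0.0654) and gave TIGAR a call at 2 µM (0.0205). With single libraries of either agent left out, MDM2, DRAM1, AEN and RPS27L at 1 µM (up to 0.176) and BTG1, CCNG2, SESN1, POLH, RPS27L and SPATA18 at 2 µM (up to 0.173) each lost the call at least once, and DDB2 and TP53INP1 did not.

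Ribociclib against AU2-94 at 72 h gave 4 members (3.34%), TP53INP1 higher (0.20) and DDB2 (-0.63), FDXR (-0.46) and SESN2 (-0.32) lower, and 2 of them without ribociclib replicate 2. The replicate block ended the SESN2 call (adjusted p = 0.0617), as did leaving out AU2-94 replicate 2 or 3 or ribociclib replicate 1 or 2 (up to 0.213). Atirmociclib against ribociclib gave 6 (9.18%), FAS (0.76), TP53INP1 (0.43) and SESN2 (0.29) higher and DDB2 (-0.44), RPS27L (-0.35) and ASCC3 (-0.21) lower. These became 2 higher and 5 lower with equal totals, and 3 in all without atirmociclib replicate 2. The FAS call was lost without any of the 3 atirmociclib libraries or ribociclib replicate 2 or 3 (adjusted p up to 0.11), with no filter (0.0547) and with no trend (0.0555). SESN2 also lost its call under the block (0.0521), and on leaving out atirmociclib replicate 2 or 3 or ribociclib replicate 1 or 2 (up to 0.162). ASCC3 was lost without replicate 2 of either agent (up to 0.0766), and DDB2 without atirmociclib replicate 1 (0.0519). At 2 µM, TP53INP1 and DDB2 were called different between each pair of agents at 72 h, TP53INP1 being lowest and DDB2 highest with AU2-94. This held in the fit of all groups of the time. In fits of the 2 groups only, TP53INP1, FDXR and SESN2 lost the call between ribociclib and AU2-94 (adjusted p = 0.0925, 0.104 and 0.203). DDB2, ASCC3 and SESN2 lost it there between atirmociclib and ribociclib (0.0855, 0.0961 and 0.158). BTG1 was not called different between ribociclib and AU2-94, with an interval of -0.17 to 0.12.

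**Figure D5:**
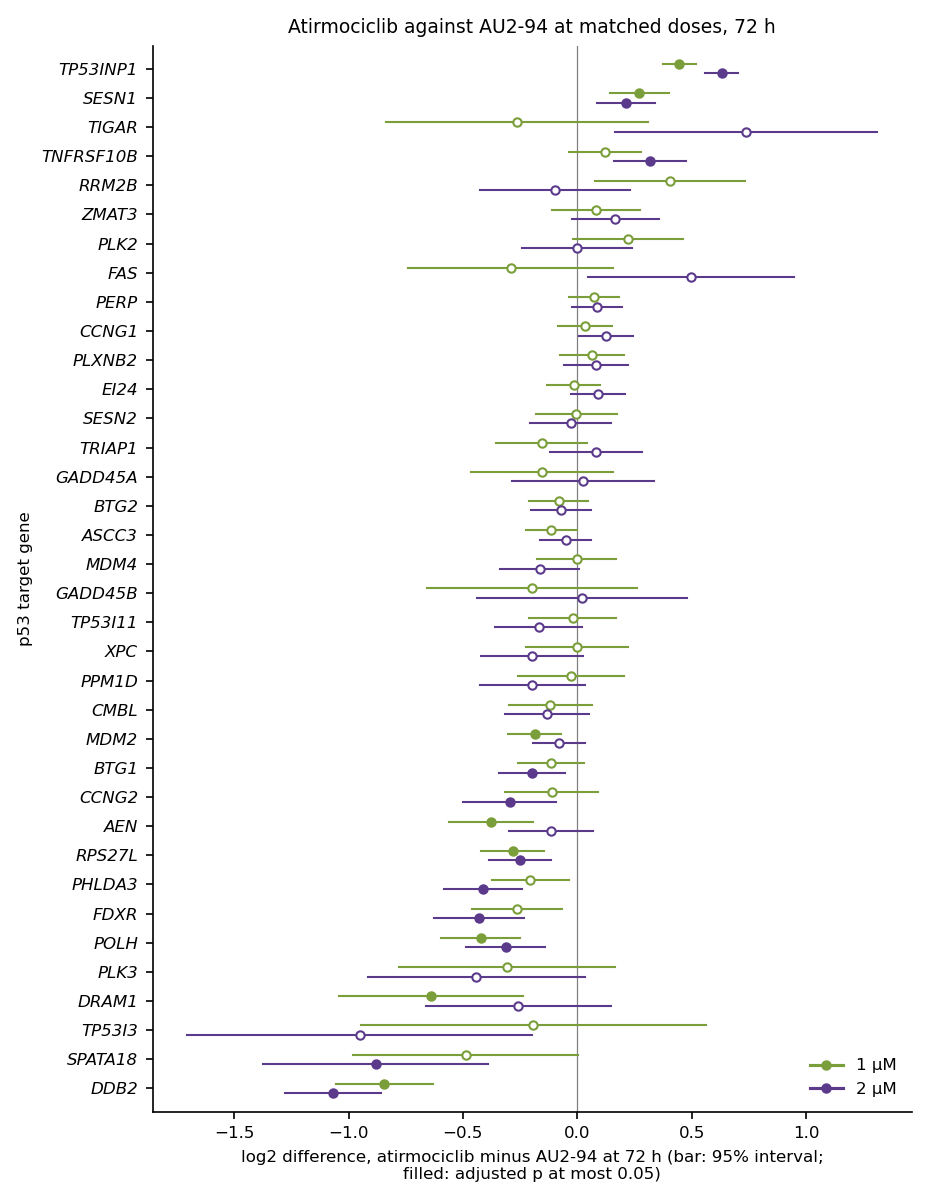
Difference in log2 expression between atirmociclib and AU2-94 at 72 h (x axis) for each p53 target gene (y axis, ordered by the mean of the doses), at 1 µM (green) and 2 µM (purple), with 95% intervals; filled points passed an adjusted p of 0.05. TP53INP1 lies at 0.45 and 0.63 at the top and DDB2 at -0.84 and -1.07 at the bottom, while most members have open points whose intervals include 0.

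Members called between the doses made up 0% to 2.78% of the list, near the shares of all genes. Between 2 and 1 µM of AU2-94 limma called 0 members at 24 h (0.409% of all genes) and 0 at 72 h (0.00%), with 5 and 2 at an unadjusted p under 0.05. Between the doses of atirmociclib it called 0 at 24 h (0.0124%, 5 at an unadjusted p under 0.05) and 1 at 72 h (2.19%), TP53INP1 higher at 2 µM by 0.15 (interval 0.079 to 0.22). That call was lost under 5 of the other settings and without any of the 3 replicates at 1 µM or replicate 1 or 3 at 2 µM (adjusted p up to 0.252 over all of these). The 95% intervals of the dose difference for DDB2 at 72 h were -0.19 to 0.23 for AU2-94 and -0.41 to 0.010 for atirmociclib.

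Of genes outside the list, CDKN1A was followed, together with lists of 27 further p53 targets and 17 regulators of p53. CDKN1A encodes p21, the CDK inhibitor through which p53 halts the cycle. Normalised counts of CDKN1A at 24 h were 2399.6, 2515 and 2459 in vehicle libraries and 1458, 1424 and 1469 in ribociclib libraries. AU2-94 gave 1476, 1844 and 1730.3 at 1 µM and 2239, 2119.7 and 1791 at 2 µM, and atirmociclib gave 2263, 1835 and 2022 at 1 µM and 2346, 2219 and 1959 at 2 µM. All 15 treated libraries lay below vehicle. In log2 units the differences were -0.55 and -0.27 with AU2-94, -0.27 and -0.18 with atirmociclib and -0.76 with ribociclib, of which atirmociclib at 2 µM was not called (adjusted p = 0.148). AU2-94 at 2 µM and atirmociclib at 1 µM lost the call with any of 5 libraries left out, all 3 of vehicle and replicates 2 and 3 of the treatment (adjusted p up to 0.194).

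CDKN1A normalised counts at 72 h were 2894, 3125 and 2810.0 in vehicle libraries and 1835, 1647 and 1824 in ribociclib libraries. AU2-94 gave 2349.8, 2218 and 2167 at 1 µM and 2287, 2309 and 2287 at 2 µM, and atirmociclib gave 1536, 1485 and 1586 at 1 µM and 1671, 1671 and 1717 at 2 µM. Again no treated library reached vehicle, and all 5 treatments were called, with log2 fold changes of -0.94 to -0.36. The effect of atirmociclib was larger at 72 h than at 24 h (difference -0.66 at 1 µM and -0.62 at 2 µM), and that of the others was not called different.

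Of the further p53 targets, 26 were tested at 24 h and 27 at 72 h. Depending on the treatment, 4 to 6 were higher at 24 h (15.4% to 23.1%, against 14.3% to 18.6% of all genes) and 6 to 8 lower (23.1% to 30.8%, against 13.5% to 16.2%). At 72 h 4 to 7 were higher (14.8% to 25.9%, against 14.2% to 20.9%) and 7 to 10 lower (25.9% to 37.0%, against 15.3% to 19.8%). Of the regulators of p53, 16 were tested, with 1 to 2 higher (6.25% to 12.5%) and 3 to 5 lower (18.8% to 31.2%) at 24 h and 2 to 5 higher (12.5% to 31.2%) and 6 to 7 lower (37.5% to 43.8%) at 72 h, beside the same shares of all genes. These lists, like the members, thus held calls in both directions in every treatment, and their medians were between -0.19 and 0.021 for the further targets and between -0.20 and -0.073 for the regulators.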

How the data were processed

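RNA of 36 LNCaP libraries (12 groups of 3 biological replicates) was sequenced in bulk. The authors ran nf-core/rnaseq, with STAR 2.6.1d, GRCh38 and DESeq2 named in their methods and notes. The signal values that the authors deposited are normalised counts per Ensembl gene, with similar library totals and no adjustment for gene length. The counter, the annotation release and the strand setting are not given in the sources used here. Only 4.43% of values between 0 and 10 lay within 0.01 of a whole number, so reads could not be recovered, no counting interval is given, and count models were not run. Symbols came from GENCODE release 44.

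Genes with a normalised count of 10 or more in 3 or more libraries were kept (16137 at 24 h, 16341 at 72 h, 16850 for both times). limma 3.58.1 in R 4.3.3 was fitted to log2(normalised count + 1) over the 6 groups of a time, or over all 12 groups, with a mean-variance trend and no replicate block. Tests were two-sided, and p-values were adjusted by Benjamini-Hochberg over all genes of a contrast. Fold changes are on this log2 scale and understate changes of weakly expressed genes. In simulated data of the first 24 h comparison (16065 genes), 91% of 200 planted changes of 2-fold or more in either direction were recovered. Smaller changes, which most called members had, were not planted. Values in every library are given for MDM2, for the 6 members with the largest mean effect of the 5 treatments at each time, for members whose mean effect passed in opposite directions, and for CDKN1A. A further gene outside the list was followed and is not reported here. Other genes are given as ranges. The members and gene lists were chosen with earlier results of these data known. The search for sites within 5 kb was added after the values were seen. Alternatives were a pseudocount of 8, no filter, a mean of 100 or more, quantile normalisation, equal totals, no trend, the replicate block, the 2 groups of a contrast only, and each library left out.

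The labels give the replicate number as a batch, so libraries of the same number are paired. The correlation of their deviations from group means over 45 pairs averaged 0.0018 at 24 h (range -0.090 to 0.11). The 72 h average was -0.0022 (range -0.080 to 0.050). Libraries that differ in number averaged -0.00088 and 0.0011. Protein sequences were not used here.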

Additional observations from a re-analysis of the deposited data

Results flagged for a closer look

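A test of the difference between the times picked out members whose treatment effect was not the same at 24 h and 72 h. It called 10 members for AU2-94 at 1 µM (21.6% of all genes), 10 for AU2-94 at 2 µM (18.5%), 12 for atirmociclib at 1 µM (21.9%), 15 for atirmociclib at 2 µM (21.6%) and 10 for ribociclib (20.2%), by limma with the adjusted p taken over all genes. The 5 tests of a gene share the vehicle libraries, and the 72 h wells were seeded at lower density, so time and density cannot be told apart.

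For 5 members the effect was lower at 72 h in every treatment. The share of all genes called in every treatment was not counted. The log2 difference was -0.45 to -0.30 for CCNG1, the cyclin that acts on MDM2, and -0.53 to -0.35 for the antiproliferative gene BTG1. EI24 gave -0.41 to -0.33, TRIAP1 gave -0.51 to -0.43 and RPS27L gave -0.80 to -0.48. For TP53INP1, which acts in autophagy, the effect was higher at 72 h by 0.22 to 0.57. PLXNB2, the semaphorin receptor, gave 0.44 to 0.52 and was lower than vehicle at 24 h and higher at 72 h.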

How the results depend on the processing

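The 555 fold changes followed, 272 of them called, were recomputed under 8660 alternatives. Of these, 8333 kept their side of the threshold, 241 lost a call, 86 gained one and 0 turned a called direction. Among the 8333 were 236 whose direction changed while they were called in neither setting. Of the 272 called fold changes, 219 were called in every setting run. The losses are counted over alternatives, so that 1 call can be counted several times. Leaving out a library gave 184 losses, no filter 14, no trend 12, quantile normalisation 12 and equal totals 11. The replicate block lost 3 calls (PLXNB2 with AU2-94 at 2 µM at 24 h, and TP53I3 with atirmociclib at 2 µM at 72 h and in its difference between the times, adjusted p = 0.0521) and gained 1 (the difference between the times of TIGAR with atirmociclib at 1 µM, adjusted p = 0.0421), and for agents and vehicle over time it lost DRAM1, BTG1, SESN2 against each of the other agents and CCNG1, and gained TIGAR, with the values given beside those results. It changed no other call. Atirmociclib against AU2-94 at 1 µM at 24 h gave 1 member in place of 2 with no filter, with no trend and with each library left out. In fits of the 2 groups only, atirmociclib against ribociclib gave 1 at 24 h and 3 at 72 h, and ribociclib against AU2-94 gave 1 at 72 h. The 1 member between the doses of atirmociclib at 72 h became 0 with no filter, quantile normalisation, equal totals, no trend and the 2 groups only. With a library left out, atirmociclib against ribociclib gave 1 to 2 at 24 h and 3 to 6 at 72 h, ribociclib against AU2-94 at 72 h 2 to 4, the doses of atirmociclib 0 to 1, and vehicle over time 3 to 5. AU2-94 at 2 µM at 24 h had 6 to 9 members lower, the 6 being without its replicate 3, and ribociclib at 72 h had 6 to 9 higher, the 6 being without vehicle replicate 1. The cause was not tested.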
